A study of Mus musculus with 10 samples.

Results

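The genes studied here were 32 genes for glutamate receptors, their auxiliary subunits and the scaffold and signalling proteins that hold them at the postsynaptic side of excitatory synapses. They were listed by name for those roles, with earlier results of these data known, and all 32 were among the 43629 genes of the count table. The question was how much these genes differed in the hippocampus of adult Dp1Tyb mice, a model of Down syndrome. Dp1Tyb mice carry the Dp(16Lipi-Zbtb21)1TybEmcf duplication, an extra copy of the part of mouse chromosome 16 (Mmu16) from Lipi to Zbtb21, in all cells. Their controls were wild-type (WT) littermates. The labels name the strain of all 10 mice C57BL/6J.129P2, and by the methods of the study the line had been backcrossed to C57BL/6JNimr. Whole hippocampus was taken from 5 male mice of each genotype, and poly(A) RNA was sequenced. The labels give an age of 18 weeks for all mice, and the methods of the study a slightly higher one. No further treatment or allele was named for either group.

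Glutamate is the main excitatory transmitter of the hippocampus. AMPA receptors carry most of the fast current, NMDA receptors admit calcium and start synaptic plasticity, and metabotropic receptors act through G proteins on both sides of the synapse. The ionotropic receptors are tethered to the postsynaptic density by membrane-associated guanylate kinases (MAGUKs), which bind through further proteins to Shank and Homer scaffolds, and the kinase CaMKII turns the calcium signal into a change in synaptic strength.

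The 10 libraries held 18227684 to 43692270 counts, and each of the 32 genes had between 164 and 186549 counts in every library, so all passed the filter on low counts and were tested. None of them lay in the duplicated region. Grin2a and Dlg1 lie on chromosome 16 but outside it. Levels are given as CPM, the counts of a gene per 1000000 counts of the library after TMM scaling. Marker genes of the labelled tissue were well expressed. The 8 markers of hippocampal excitatory neurons summed to 2205 to 2423 CPM in WT and 2258 to 2419 CPM in Dp1Tyb mice. None passed the test, and Slc17a7 alone had means of 1274 CPM in WT and 1306 CPM in Dp1Tyb mice. The 5 thalamic markers summed to no more than 70.8 CPM and 6 striatal markers to no more than 98.1 CPM. Sums over different genes do not identify a tissue by themselves. Choroid plexus markers differed widely between libraries, from 36.8 to 5329 CPM in sum, and were lowest in WT2, Dp1Tyb1 and Dp1Tyb4. The 5 inhibitory interneuron markers summed to 592 to 668 CPM in WT and 684 to 782 CPM in Dp1Tyb mice, and 2 of them, Gad2 and Vip, passed the test as higher in Dp1Tyb mice (adjusted p = 0.0410 and 0.0209). Gad1 had a log2 fold change of 0.21 and did not pass, and Sst and Pvalb had estimates of -0.049 and -0.16. Of 6 astrocyte markers 1 passed the test, Gfap (higher, adjusted p = 0.0167). The part of these cell type markers in the results that follow was not tested. In RNA from a whole tissue, fewer cells of a type and less RNA per cell cannot be told apart.

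Of the 32 genes, 2 fell and none rose in Dp1Tyb hippocampus. These were Grin2c, for the GluN2C subunit of the NMDA receptor, and Grm2, for the presynaptic metabotropic receptor mGlu2. The share was 6.25%, against 1.11% of all 17237 tested genes and 0.718% of those outside the duplicated region, at an adjusted p under 0.05 in edgeR's quasi-likelihood test. Of all tested genes, 0.87% were called higher and 0.238% lower. The groups did not overlap for these same genes, 2 of 32, against 3.68% of all tested genes. At an unadjusted p under 0.05 there were 6 genes, or 18.8% against 14.4% of all tested genes. Of these, 2 were higher (background 7.97%) and 4 lower (background 6.4%). The other 30 genes had adjusted p-values of 0.203 or more, and for each of them the values of the genotypes overlapped. Estimates were small, with 28 of 32 within 0.15 of zero on the log2 scale, a median absolute log2 fold change of 0.064 against 0.086 over all tested genes, and a median standard error of 0.062. Above zero were 14 and below it 18, where 48.7% of all tested genes were above zero. The median log2 fold change was -0.015 against -0.0041 over all tested genes. The 32 genes also varied less between mice of the same genotype, with a median SD of 0.105 against 0.124 on the log2 scale. Whether their smaller absolute estimates reflect this smaller spread was not tested.

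**Figure D1:**
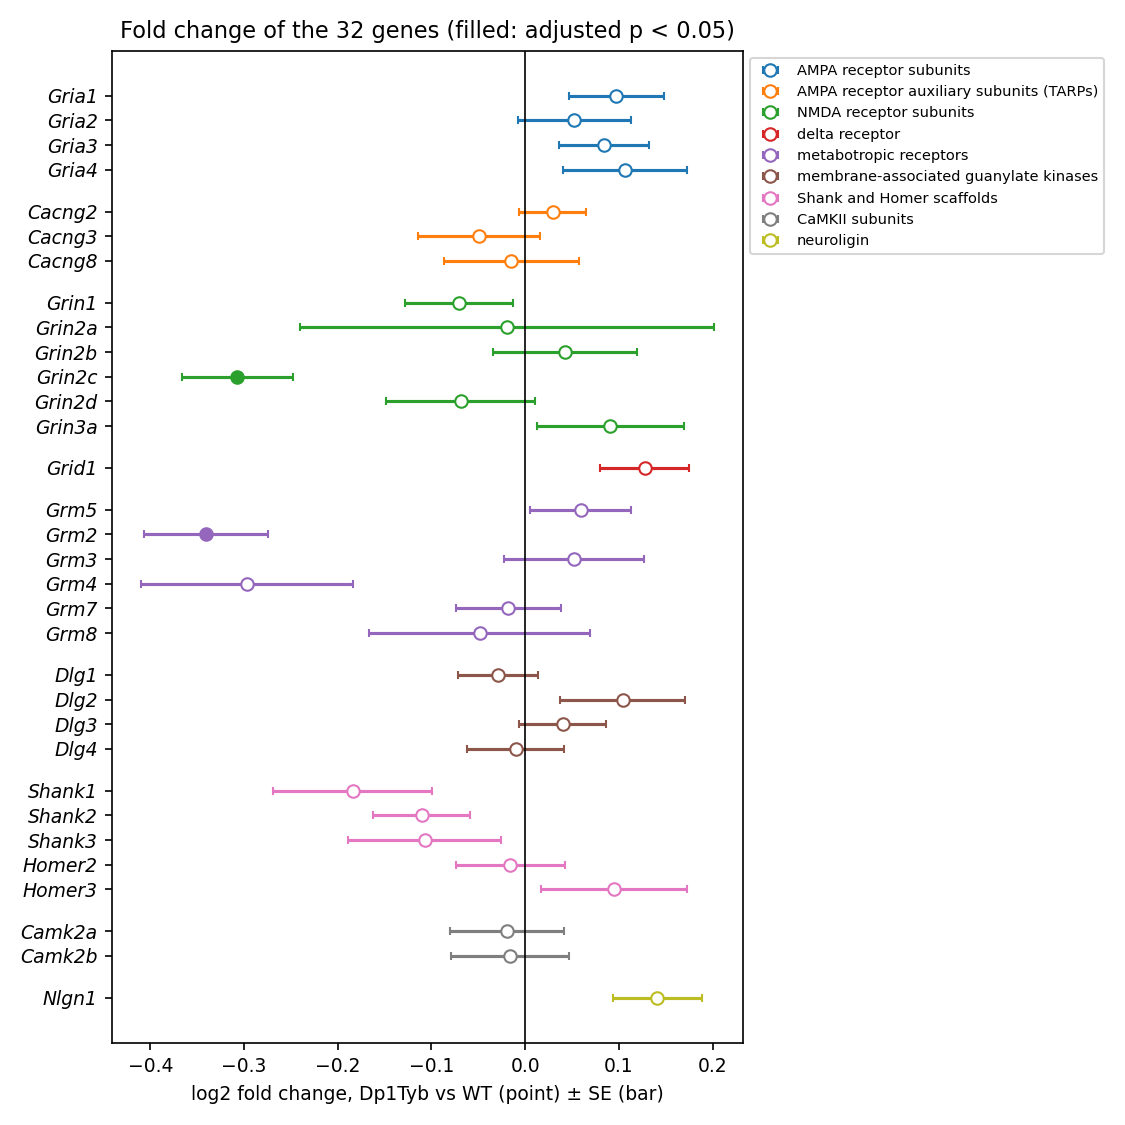
Log2 fold change of each of the 32 genes in Dp1Tyb relative to WT hippocampus (x axis; points are estimates of edgeR, bars are 1 standard error, n = 5 mice per genotype), ordered by role and coloured by it. Filled points, Grin2c at -0.31 and Grm2 at -0.34, had an adjusted p under 0.05; the other 30 genes lay between -0.30 and 0.14.

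The promoters of the genes that fell are shown because these were the only members that passed the test. Each run is the 250 bases upstream of the RefSeq start of the gene on GRCm38.p6, 5′ to 3′ on the strand of the gene, with each GGGCGG, the GC box bound by Sp-family factors, in capitals. The Grm2 promoter, at chr9:106656110-106656359 on the minus strand, and the Grin2c promoter, at chr11:115267244-115267493 on the minus strand, were 71.2% and 68.8% G and C.

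Grm2: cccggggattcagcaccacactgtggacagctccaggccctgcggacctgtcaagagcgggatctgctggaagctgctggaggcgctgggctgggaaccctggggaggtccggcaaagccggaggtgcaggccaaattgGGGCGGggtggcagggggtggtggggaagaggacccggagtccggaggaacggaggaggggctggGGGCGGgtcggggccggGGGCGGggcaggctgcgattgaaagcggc
Grin2c: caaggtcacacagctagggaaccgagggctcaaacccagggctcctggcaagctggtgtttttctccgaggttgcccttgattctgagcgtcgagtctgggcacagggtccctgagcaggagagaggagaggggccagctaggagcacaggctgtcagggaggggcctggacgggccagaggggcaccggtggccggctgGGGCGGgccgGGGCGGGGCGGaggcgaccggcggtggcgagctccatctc

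Each held 3 GC boxes, counting matches on either strand and matches that share a base. Among the promoters of all genes in the table, 32.7% of 32851 held at least 1 GC box and 8.47% at least 3. RefSeq promoters were matched for 21 of the 32 genes, 34 promoters in all since some genes have several starts, and 14 of them (41.2%) held a GC box and 6 held 3 or more. Their median G and C content was 57.8%, against 52.4% over all promoters. The cyclic AMP response element TGACGTCA was in 0 of the 34 and in 1.55% of all promoters, and the E-box CACGTG in 3 (8.82%) and 6.02%. A match describes these letters only.

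The levels of the genes spanned a wide range. They are compared per length, as RPKM, that is CPM divided by the kb of annotated exon, averaged over all 10 mice. Camk2a was highest at 566 RPKM, followed by Gria1 at 192, Camk2b at 152, Gria2 at 65.8 and Dlg4 at 56.2. The ranges of Camk2a, Gria1, Camk2b and Gria2 over the 10 mice did not overlap, so their order held in every mouse. From Gria2 down to Homer2 at 8.42 RPKM each gene overlapped its neighbour in the order. Nlgn1 at 5.82 and Grin3a at 4.16 RPKM stood apart from the genes above them, and Grm8 was lowest at 0.851, below Grm4 at 2.41 without overlap. In all, 25 of 31 neighbouring pairs overlapped. The 2 genes that fell were in the lower part of this order, Grm2 at 13.5 and Grin2c at 10.1 RPKM. Annotated exons can include parts that are not used in hippocampus, which lowers the RPKM of genes with long annotated ends.

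**Figure D2:**
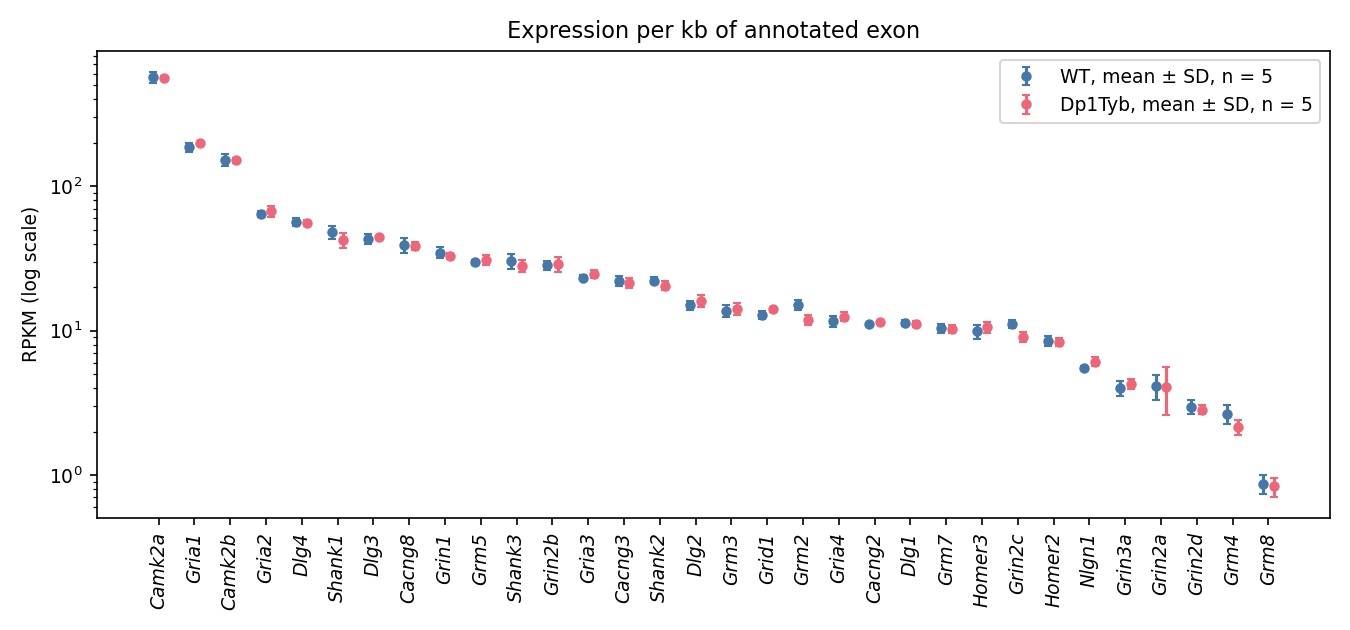
Mean RPKM of the 32 genes (y axis, log scale) in WT and Dp1Tyb mice, with 1 SD over 5 mice per genotype, ordered by the mean over all 10 mice. Levels ran from 566 RPKM for Camk2a to 0.851 for Grm8, and the genotypes lay apart for Grm2 and Grin2c.

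The AMPA receptor subunits were measured with small errors and none passed the test, although all 4 estimates were above zero. Gria1, for GluA1, the subunit of the activity-regulated receptor pool, was at 1157, 1248, 1048, 1055 and 1106 CPM in WT1 to WT5 and at 1183, 1201, 1217, 1230.5 and 1174 CPM in Dp1Tyb1 to Dp1Tyb5. WT2 was the highest of all 10 and the Dp1Tyb mice were packed between 1174 and 1230.5 CPM, above 4 of the 5 WT mice, with a log2 fold change of 0.097 ± 0.051 (adjusted p = 0.407). Gria3, for GluA3, was at 227, 243, 234, 228 and 217 CPM in WT and at 247, 249, 247, 259 and 216 CPM in Dp1Tyb mice. Of these, 4 of 5 Dp1Tyb mice were above every WT mouse, and Dp1Tyb5 was below all of them. The log2 fold change of Gria3 was 0.084 ± 0.048 (adjusted p = 0.443). Gria2, for the subunit that makes the channel impermeable to calcium, ranged over 955 to 1089 CPM in WT and 925 to 1179 CPM in Dp1Tyb mice, with a log2 fold change of 0.053 ± 0.060. Gria4, which is most prominent in interneurons, ranged over 61.9 to 77.8 CPM in WT and 72.2 to 84.7 CPM in Dp1Tyb mice, with a log2 fold change of 0.11 ± 0.066 (adjusted p = 0.485). Gria1 made up 65.1% ± 1.31 (SD, n = 5) of the summed RPKM of the 4 subunits in WT mice and 65.7% ± 1.38 in Dp1Tyb mice. The log2 ratio of Gria1 to Gria2 was 1.52 ± 0.073 in WT and 1.57 ± 0.10 in Dp1Tyb mice, a difference of 0.051 ± 0.055 (SE), less than the spread between mice.

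Transmembrane AMPA receptor regulatory proteins (TARPs) carry AMPA receptors to the surface and hold them at the synapse. The 3 TARP genes showed no change past the test. Cacng2, for stargazin, was at 63.1, 61.6, 61.8, 61.6 and 59.9 CPM in WT1 to WT5 and at 64.1, 63.7, 62.7, 59.9 and 64.0 CPM in Dp1Tyb1 to Dp1Tyb5. It had the steadiest level of the 32 genes, with a pooled SD within genotypes of 0.034 on the log2 scale, at the 1.89th percentile among 2381 genes of like level, and a log2 fold change of 0.030 ± 0.036. Cacng8, the TARP most enriched in hippocampus, was at 79.0, 87.7, 87.3, 94.2 and 108 CPM in WT and at 89.8, 85.4, 89.5, 86.7 and 100.1 CPM in Dp1Tyb mice. Its highest values were in WT5 and Dp1Tyb5 and the groups overlapped fully, with a log2 fold change of -0.015 ± 0.072 (adjusted p = 0.945). Cacng3 was at 63.3, 65.5, 62.1, 63.7 and 52.5 CPM in WT and at 61.8, 65.4, 59.3, 55.3 and 54.98 CPM in Dp1Tyb mice. WT5 was the lowest of all 10 mice for Cacng3 and lay apart from the other WT mice, and the log2 fold change was -0.050 ± 0.065 (adjusted p = 0.756).

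Among the NMDA receptor genes, Grin2c fell and the obligatory subunit Grin1 and the main forebrain subunits Grin2a and Grin2b did not pass the test. Grin2c (ENSMUSG00000020734, protein coding, chr11:115249169-115267243 on the minus strand of GRCm38) encodes GluN2C, which gives receptors with weak magnesium block and is found in the forebrain mainly in astrocytes and some interneurons. Its level was 51.2, 57.2, 55.03, 57.8 and 60.0 CPM in WT1 to WT5 and 48.4, 41.5, 43.4, 44.1 and 49.9 CPM in Dp1Tyb1 to Dp1Tyb5. Every Dp1Tyb mouse was below every WT mouse, by the narrow gap between WT1 and Dp1Tyb5, whereas 1.12% of all tested genes were lower without overlap. The log2 fold change was -0.31 ± 0.059 (adjusted p = 0.0232 in edgeR), a decrease of 19.2%. In RPKM the mean went from 11.2 ± 0.656 (SD, n = 5) to 9.02 ± 0.701. As a share of the summed RPKM of the 4 GluN2 genes, Grin2c was 24.0% ± 1.39 in WT and 20.2% ± 2.21 in Dp1Tyb mice. Grin2b was 60.7% ± 2.22 and 64.6% ± 1.93. These shares depend on the annotated exon lengths, 5.04 kb for Grin2c, 17.9 kb for Grin2a and 24.8 kb for Grin2b. The 6 astrocyte markers summed to 3774 to 4504 CPM in WT and 4058 to 4384 CPM in Dp1Tyb mice, with 4 estimates above zero and 2 below, Gja1 at -0.080 and Aldh1l1 at -0.0095. The call depended on single libraries, as it was lost without WT2, WT4, WT5, Dp1Tyb2, Dp1Tyb3 or Dp1Tyb4 (adjusted p 0.0136 to 0.0750 over the 10 fits that each left out 1 mouse, log2 fold change -0.34 to -0.28). It was also lost when a trend on GC content and length was removed (log2 fold change -0.20, adjusted p = 0.108) and without the 3 libraries low in choroid plexus markers (-0.33, adjusted p = 0.0949).

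Grin1, for the GluN1 subunit that every NMDA receptor needs, was at 299, 335, 317, 368 and 362 CPM in WT1 to WT5 and at 312, 317, 327, 301 and 344 CPM in Dp1Tyb1 to Dp1Tyb5. WT4 and WT5 were the highest and WT1 the lowest, so that the Dp1Tyb mice lay within the WT range, with a log2 fold change of -0.070 ± 0.057 (adjusted p = 0.600). An antisense gene, Grin1os, overlaps 13.5% of the exon bases of Grin1. It had 4967 counts in all libraries together, where Grin1 had 5844 to 13622 in each. The library kit was stranded, but the strand setting of the counting is not stated, so reads of the pair may not have been told apart. Grin2b, for GluN2B, ranged over 641 to 783 CPM in WT and 627 to 864 CPM in Dp1Tyb mice, with a log2 fold change of 0.043 ± 0.077. Grin2d, found mainly in interneurons, ranged over 17.7 to 22.6 CPM in WT and 17.7 to 21.0 CPM in Dp1Tyb mice (-0.069 ± 0.079), and Grin3a, for a subunit that lowers calcium entry, over 43.5 to 58.2 CPM in WT and 48.0 to 58.9 CPM in Dp1Tyb mice (0.091 ± 0.078). The adjusted p-values of these 4 genes were 0.600 or more in edgeR.

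Grin2a, for GluN2A, the subunit that becomes more prominent as synapses mature, was the member whose level varied most between mice of the same genotype and was picked for description after its values were seen. It was at 54.8, 82.3, 78.3, 90.6 and 63.6 CPM in WT1 to WT5 and at 39.0, 58.7, 70.2, 107 and 91.0 CPM in Dp1Tyb1 to Dp1Tyb5. Dp1Tyb1 was the lowest and Dp1Tyb4 the highest of all 10 mice, a 2.74-fold range inside 1 genotype, where Grin2b ranged 1.38-fold and Cacng2 1.07-fold over all 10. The pooled SD within genotypes was 0.45 on the log2 scale, at the 99.7th percentile among 2313 genes of like level. With this spread the log2 fold change of -0.019 ± 0.22 had the largest standard error of the 32 genes, and a difference of the size seen for Grin2c was not detectable at this spread. The log2 ratio of Grin2a to Grin2b was -2.80 ± 0.28 (SD, n = 5) in WT and -2.91 ± 0.47 in Dp1Tyb mice, a difference of -0.11 ± 0.24 (SE). The 20 genes whose levels over the 10 mice were most like those of Grin2a had a large total exon length. Its median was 13.2 kb against 4.10 kb over all tested genes, and 18 of the 20 were above the latter. Grin2b, which varied less, has 24.8 kb of annotated exon against 17.9 kb for Grin2a. Whether length plays a part was not tested.

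**Figure D3:**
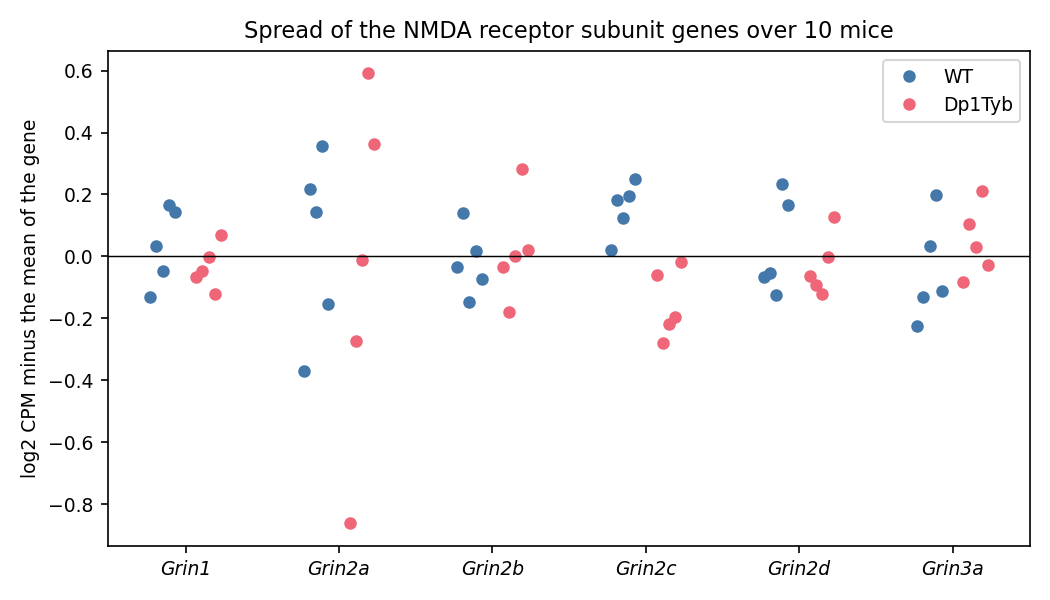
Log2 CPM of the 6 NMDA receptor genes in each mouse minus the mean of the gene over the 10 mice (y axis), WT in blue and Dp1Tyb in red. The genotypes separate for Grin2c only, and Grin2a spreads most widely, from Dp1Tyb1 at the bottom (39.0 CPM) to Dp1Tyb4 at the top (107 CPM).

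Grid1 encodes GluD1, a delta receptor that binds cerebellins and organises synapses more than it conducts current. It was at 73.4, 77.6, 79.8, 82.5 and 70.7 CPM in WT1 to WT5 and at 81.9, 86.3, 79.2, 84.5 and 87.7 CPM in Dp1Tyb1 to Dp1Tyb5. Dp1Tyb2, Dp1Tyb4 and Dp1Tyb5 were above every WT mouse and the lowest, Dp1Tyb3, was below WT3 and WT4. The log2 fold change was 0.13 ± 0.047, with an unadjusted p of 0.0185 and an adjusted p of 0.249 in edgeR, so that it did not pass the test.

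Among the 6 metabotropic receptor genes Grm2 fell, and the remaining group II gene Grm3 had an estimate on the other side of zero. Grm2 (ENSMUSG00000023192, protein coding, chr9:106643095-106656082 on the minus strand of GRCm38) encodes mGlu2, a receptor on presynaptic terminals that lowers glutamate release and is abundant in granule cells of the dentate gyrus. Its level was 78.4, 76.9, 66.4, 78.3 and 67.9 CPM in WT1 to WT5 and 62.9, 61.1, 51.5, 54.6 and 60.6 CPM in Dp1Tyb1 to Dp1Tyb5. The groups did not overlap, with WT3 the lowest of the WT mice and Dp1Tyb1 the highest of the Dp1Tyb mice, and the log2 fold change was -0.34 ± 0.066 (adjusted p = 0.0252 in edgeR), a decrease of 21.0%. In RPKM the mean went from 15.04 ± 1.21 (SD, n = 5) to 11.9 ± 0.990, and the share of Grm2 in the summed RPKM of the 6 genes from 20.8% ± 1.35 to 17.0% ± 1.98. Of the 8 excitatory neuron markers listed, 5 had estimates above zero. The dentate granule cell genes among them, Prox1 and C1ql2, had estimates of -0.18 ± 0.057 and -0.49 ± 0.13. Neither passed the test (adjusted p = 0.184 and 0.0906 in edgeR), and a link to Grm2 was not tested. The call for Grm2 was lost without WT1, WT2, WT4, Dp1Tyb2, Dp1Tyb3 or Dp1Tyb4 (adjusted p 0.0193 to 0.0727 over the 10 fits that each left out 1 mouse, log2 fold change -0.37 to -0.30). With a trend on GC content and length removed it was -0.28 (adjusted p = 0.0618), and without the 3 libraries low in choroid plexus markers -0.34 (adjusted p = 0.122). An antisense gene, Gm28111, overlaps 9.6% of the exon bases of Grm2 but had 136 counts in all libraries together.

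Grm4, for the presynaptic group III receptor mGlu4, had an estimate close in size to that of Grm2 with a larger error. It was at 16.8, 17.8, 16.2, 16.8 and 11.7 CPM in WT1 to WT5 and at 12.9, 14.7, 12.8, 10.5 and 13.7 CPM in Dp1Tyb1 to Dp1Tyb5. WT1 to WT4 were above every Dp1Tyb mouse, while WT5 was below 4 of the 5 Dp1Tyb mice. The log2 fold change was -0.30 ± 0.11 (unadjusted p = 0.0209, adjusted p = 0.264 in edgeR). Grm5, for the postsynaptic group I receptor that couples to phospholipase C and binds Homer, was the most abundant of the 6, at 299, 309, 297, 324 and 294 CPM in WT and at 299, 308, 334, 355 and 291 CPM in Dp1Tyb mice. Dp1Tyb3 and Dp1Tyb4 were the highest and Dp1Tyb5 the lowest, with a log2 fold change of 0.059 ± 0.054 (adjusted p = 0.637). Grm3, expressed in neurons and astrocytes, ranged over 35.4 to 45.1 CPM in WT and 37.2 to 47.9 CPM in Dp1Tyb mice, with a log2 fold change of 0.052 ± 0.075 (adjusted p = 0.779). Grm7 and Grm8, both presynaptic group III receptors, had log2 fold changes of -0.018 ± 0.056 and -0.049 ± 0.12 with overlapping groups.

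**Figure D4:**
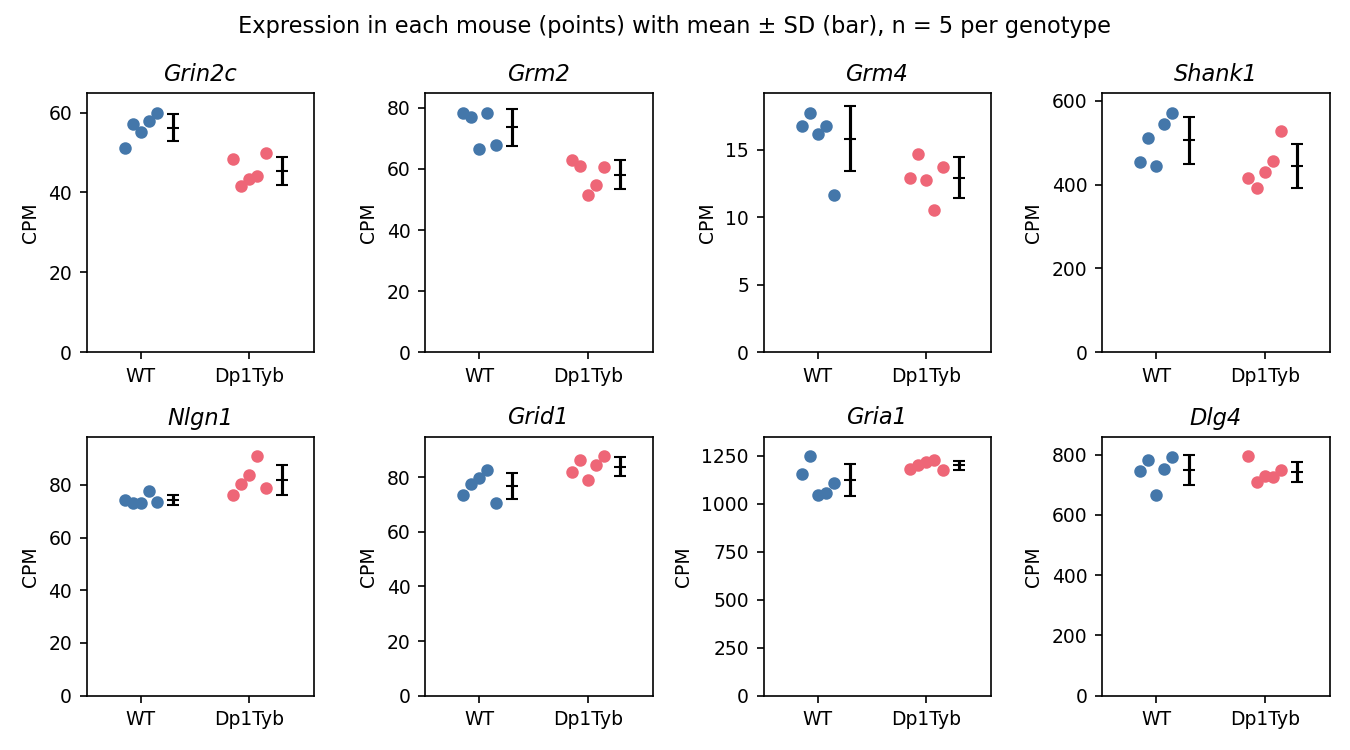
CPM of 8 of the genes in each mouse (y axis from 0; points), with the mean and 1 SD (bar) of 5 mice per genotype. Grin2c and Grm2 separate by genotype, Grm4, Shank1, Nlgn1 and Grid1 overlap in 1 or more mice, and Gria1 and Dlg4 overlap.

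The MAGUK genes, which encode the main anchors of AMPA and NMDA receptors in the density, did not pass the test in either direction. Dlg4, for PSD-95, was at 747, 783, 665, 752 and 791 CPM in WT1 to WT5 and at 795, 709, 730.0, 727 and 750.5 CPM in Dp1Tyb1 to Dp1Tyb5. WT3 was the lowest and Dp1Tyb1 the highest, and the log2 fold change was -0.010 ± 0.051, smaller than its standard error. Dlg3, for SAP102, was at 266, 271, 224, 254 and 249 CPM in WT and at 266, 262, 262, 256 and 252 CPM in Dp1Tyb mice. Apart from the low value in WT3 the groups shared 1 range, with a log2 fold change of 0.040 ± 0.047 (adjusted p = 0.728). Dlg2, for PSD-93, was at 231, 269, 239, 255 and 228 CPM in WT and at 235, 266, 252, 306 and 256 CPM in Dp1Tyb mice. Dp1Tyb4 was the highest and the rest lay within the WT range, with a log2 fold change of 0.10 ± 0.066 (adjusted p = 0.499). Dlg1, for SAP97, had a log2 fold change of -0.029 ± 0.042. Dlg4 made up 44.8% ± 1.32 of the summed RPKM of the 4 genes in WT and 43.9% ± 1.55 in Dp1Tyb mice.

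The Shank genes, whose proteins form the lattice beneath the MAGUKs, all had estimates below zero, and none passed the test. Shank1 was at 453, 511, 445, 544 and 572 CPM in WT1 to WT5 and at 417, 392, 431, 457 and 528 CPM in Dp1Tyb1 to Dp1Tyb5. Dp1Tyb1, Dp1Tyb2 and Dp1Tyb3 were below every WT mouse and Dp1Tyb5 was among the higher WT values, with a log2 fold change of -0.18 ± 0.085 (unadjusted p = 0.0484, adjusted p = 0.345 in edgeR). Shank2 was at 230.2, 238, 225, 260.0 and 239.6 CPM in WT and at 224, 198, 219, 223 and 241 CPM in Dp1Tyb mice. All Dp1Tyb mice except Dp1Tyb5 were below every WT mouse, and the log2 fold change was -0.11 ± 0.052 (unadjusted p = 0.0527, adjusted p = 0.353). Shank3 ranged over 238 to 318 CPM in WT and 235 to 298 CPM in Dp1Tyb mice, with a log2 fold change of -0.11 ± 0.081 (adjusted p = 0.568). With the GC and length trend removed the estimates were -0.074 for Shank1, -0.090 for Shank2 and 0.014 for Shank3. Shank1 was 47.8% ± 0.793 of the summed RPKM of the 3 genes in WT and 46.5% ± 1.17 in Dp1Tyb mice. Homer2 and Homer3, which link Shank to group I metabotropic receptors, had log2 fold changes of -0.016 ± 0.058 and 0.095 ± 0.078 with overlapping groups. Exons of Ddx49, on the opposite strand, cover 25.4% of the exon bases of Homer3, so its value is uncertain.

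Camk2a, for the main subunit of the kinase CaMKII, was the most abundant of the 32 genes and did not differ beyond the spread between mice. It was at 4266, 4709, 3716, 4353 and 4219.9 CPM in WT1 to WT5 and at 4276, 4206, 4180.4, 4032 and 4293 CPM in Dp1Tyb1 to Dp1Tyb5. The Dp1Tyb mice lay between 4032 and 4293 CPM, inside the WT range of 3716 to 4709 CPM, with a log2 fold change of -0.019 ± 0.061 (adjusted p = 0.914). Camk2b, for the subunit that binds actin, was at 1434, 1547, 1194, 1377 and 1426 CPM in WT and at 1477, 1344, 1323, 1368 and 1388 CPM in Dp1Tyb mice. WT2 was the highest and WT3 the lowest, and the log2 fold change was -0.016 ± 0.063 (adjusted p = 0.930). The log2 ratio of Camk2a to Camk2b was 1.90 ± 0.041 (SD, n = 5) in WT and 1.90 ± 0.055 in Dp1Tyb mice, a difference of -0.0032 ± 0.031 (SE). This was the steadiest of the 3 ratios computed.

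Nlgn1 encodes neuroligin-1, the adhesion protein of excitatory synapses that binds presynaptic neurexins. It had the highest estimate of the 32 genes and did not pass the test. It was at 74.2, 73.0, 73.0, 77.5 and 73.6 CPM in WT1 to WT5 and at 76.0, 80.4, 83.6, 90.9 and 78.8 CPM in Dp1Tyb1 to Dp1Tyb5. The only Dp1Tyb mouse below a WT mouse was Dp1Tyb1, below WT4, and the log2 fold change was 0.14 ± 0.047 (unadjusted p = 0.0108, adjusted p = 0.203 in edgeR). The antisense gene A830092H15Rik overlaps 9.16% of its exon bases.

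The fold changes of the 32 genes went with the G and C content of their transcripts. Of the 9 genes whose longest annotated transcript was above 55% G and C, 8 had estimates below zero, with a median log2 fold change of -0.11. Of the 23 at or below 55%, 13 were above zero, with a median of 0.040. Over all tested genes the same split, a cut chosen after the values were seen, gave medians of -0.063 (3757 genes) and 0.011 (13347 genes). Across the 32 genes Pearson's r between log2 fold change and G and C content was -0.61 and Spearman's rho -0.58, against -0.18 and -0.26 across 17104 tested genes; genes are not independent replicates, and all share the same 10 libraries. Grm2 at 56.9% and Grin2c at 62.1% were on the rich side and Nlgn1 at 38.9% on the poor side. The libraries themselves differed in this respect. On the log2 scale, the median level of rich relative to poor genes was highest in WT5 at 0.097 and lowest in Dp1Tyb4 at -0.11. The genotypes overlapped, as Dp1Tyb5 was at 0.049, nearer to WT4 at 0.069 than to the other Dp1Tyb mice. WT1, WT2 and Dp1Tyb1 lay close together at -0.0056, -0.0069 and -0.0094. When a trend on G and C content, exon length and gene span was removed from each library, 0 of the 32 genes passed the test in edgeR, against 1.35% of all tested genes. An unadjusted p under 0.05 was seen for 5 of the 32, against 13.3% of all tested genes, and 20 estimates were above zero, against 53.5%. Whether this trend belongs to the libraries or to the genotype was not tested.

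**Figure D5:**
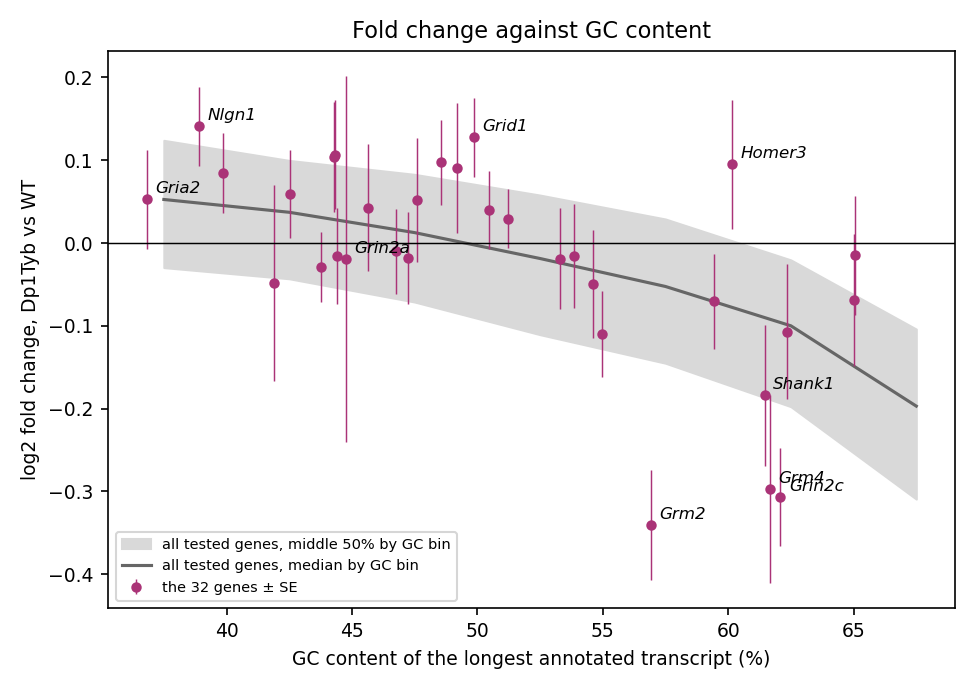
Log2 fold change in Dp1Tyb relative to WT hippocampus (y axis) against the G and C content of the longest annotated transcript (x axis, percent) for the 32 genes, with 1 standard error. The grey line and band are the median and the middle 50% of all tested genes in bins of 5%; both are lower at higher G and C content, and Grm2 at -0.34, Grin2c at -0.31 and Grm4 at -0.30 lie below the band.

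A list of 45 other genes of the excitatory synapse gave the setting. It held further AMPA receptor partners, adaptor proteins, CaMKII relatives, neurexins, cerebellins and other proteins of the density. None of the 45 passed the test in edgeR, where 11 had an unadjusted p under 0.05, 5 higher and 6 lower (24.4% against 14.4% of all tested genes), and DESeq2 called 3 higher. The median log2 fold change was -0.030. The 5 with the smallest p-values are named. Grip1, for an adaptor of GluA2, was at 27.6, 28.6, 29.4, 28.4 and 28.4 CPM in WT1 to WT5 and at 30.5, 32.9, 35.6, 34.8 and 32.4 CPM in Dp1Tyb1 to Dp1Tyb5. All Dp1Tyb mice were above all WT mice, with a log2 fold change of 0.22 ± 0.050 (adjusted p = 0.0513 in edgeR, and 0.0438 with the replicate number as a block). Nsf, for the ATPase that recycles receptors and vesicles, was at 1219, 1253, 1204, 1265 and 1199.6 CPM in WT and at 1349.8, 1316, 1287, 1360.2 and 1297 CPM in Dp1Tyb mice. These groups also did not overlap, with a log2 fold change of 0.11 ± 0.039 (adjusted p = 0.243 in edgeR), and 2.56% of all tested genes were higher without overlap. Nrxn3, for a presynaptic partner of neuroligins, had a log2 fold change of 0.19 ± 0.052 (adjusted p = 0.103, and 0.0438 with the block), Neto1, for an auxiliary subunit of kainate receptors, 0.16 ± 0.056 (adjusted p = 0.238) and Gsg1l, for an AMPA receptor partner, -0.30 ± 0.10 (adjusted p = 0.224).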

How the data were processed

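RNA was sequenced from whole hippocampus of 5 WT and 5 Dp1Tyb mice, and genotypes and replicate numbers came from the sample labels. The authors deposited raw read counts per gene: poly(A) libraries were sequenced with paired ends, trimmed with Trim Galore, aligned to GRCm38 with TopHat2 (2.0.12) and counted with HTSeq, discarding reads with several alignments. Tables of the authors' normalised values and of their own DESeq2 (1.6.3) comparison were not used. The strand setting and annotation release are not given in the sources used here, and reads shared by overlapping genes may affect single genes.

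From these counts, edgeR (4.0.16) was run on all genes with TMM scaling, filterByExpr, a quasi-likelihood F-test on genotype and Benjamini-Hochberg adjustment over 17237 tested genes; calls used an adjusted p of 0.05. Each standard error was the size of the estimate over the square root of F. CPM used TMM scaling and RPKM the GENCODE M21 exon length. Simulated counts were used to test the fit. Named genes were those past the threshold and, in each role, the highest by RPKM and the 2 with the smallest p, and among 45 partner genes the 5 with the smallest p. Genes, lists and markers were chosen with earlier results of these data known. Alternatives were DESeq2 (1.42.0), limma-voom (limma 3.58.1), median-of-ratios scaling, no filter, a replicate block and leaving out each mouse; removing trends on GC content and length, and leaving out 3 libraries, were added after seeing the data. Libraries held 18227684 to 43692270 counts, a 2.4-fold range, so errors at low counts differ between mice. No pair of libraries agreed within counting noise.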

Additional observations from a re-analysis of the deposited data

Results flagged for a closer look

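In 5 of 70 groups of 5 mice, 35 genes and ratios in each genotype, 1 mouse lay far from the others by Dixon's criterion (a gap to its neighbour over 0.71 of the range of the group on the log2 scale), where chance gives about 1 in 20 groups, or 3.5. Gria3 was at 216 CPM in Dp1Tyb5 and at 247 to 259 CPM in the other Dp1Tyb mice (gap 0.728). Cacng3 was at 52.5 CPM in WT5 against 62.1 to 65.5 CPM in the other WT mice (gap 0.762). Grm4 was at 11.7 CPM in WT5 against 16.2 to 17.8 CPM (gap 0.783), and Grm7 at 53.8 CPM in WT5 against 61.5 to 63.9 CPM (gap 0.772). Nlgn1 was at 77.5 CPM in WT4 against 73.0 to 74.2 CPM (gap 0.718). The low mouse was WT5 for 3 of the 5, and WT5 also had the highest level of genes rich in G and C relative to the rest, 0.097 on the log2 scale. Whether these are linked was not tested.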

How the results depend on the processing

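Grin2c and Grm2 were both called lower with DESeq2, limma-voom, median-of-ratios scaling, no filter and the replicate block, and their sign was negative in every alternative run. Member genes called lower were 0 once GC and length trends were taken out of each library and 0 without the 3 libraries low in choroid plexus markers, both alternatives chosen after seeing the data, and 0 to 2 when each mouse was left out. The last 2 settings used fewer mice, and the cause of the loss was not tested for any of these settings. No member was called higher in any setting. The median log2 fold change over the 32 genes was 0.017 with the trend removed and -0.013 to 0.019 when each mouse was left out. Over all tested genes, calls were 343 higher and 163 lower with DESeq2, 196 and 37 with the trend removed, 89 and 19 without the 3 libraries, and 93 to 168 and 12 to 50 when each mouse was left out. Partner genes called higher were 3 with DESeq2, 2 with the replicate block (Grip1 and Nrxn3) and 0 to 1 when each mouse was left out.

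The labels do not state whether the replicate numbers pair the mice. Deviations of same-numbered mice correlated at -0.069 to 0.277. Of the 10 mice, WT1 alone correlated best with the mouse of its own number. Such correlations over all tested genes cannot decide whether same-numbered mice shared a litter or batch, and this was not tested. The fit with the replicate block called 204 genes higher and 111 lower, among them 2 members, against 150 and 41 without it.

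Some estimates that did not pass the test changed sign. With the trend removed 26 of 32 kept their sign. For the rest, Cacng8, Grin1, Grin2d, Shank3, Camk2a and Camk2b, the log2 fold changes were 0.12, 0.020, 0.080, 0.014, 0.012 and 0.020. Without the 3 libraries the estimates that changed sign were 0.023 for Camk2a, 0.020 for Grin2a and 0.054 for Homer2. None of these passed the test. With each mouse left out, ranges crossed zero for Cacng8 (-0.063 to 0.052), Dlg3 (-0.00073 to 0.062) and Dlg4 (-0.049 to 0.011). They also did for Camk2a (-0.064 to 0.016), Camk2b (-0.067 to 0.020), Grin2a (-0.20 to 0.14) and Homer2 (-0.039 to 0.023). The remaining ones were Grin2b (-0.032 to 0.090), Grm3 (-0.0024 to 0.10), Grm7 (-0.060 to 0.0025) and Grm8 (-0.13 to 0.034). At these depths 25 of 32 estimates were within 2 standard errors of zero, and differences in lowly expressed genes such as Grm8 and in Grin2a, with its wide spread, were not detectable unless large.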
